A study of Mus musculus with 16 samples.

Results

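Basement membrane is the thin sheet of matrix that lies under endothelium and around mural, muscle, fat and Schwann cells. Its type IV collagen network and its laminin network are joined by nidogens and by perlecan, a heparan sulfate proteoglycan. A laminin is a trimer of an alpha, a beta and a gamma chain, and the alpha chain varies with the cell that makes it. In a tumor these proteins are known above all from the walls of blood vessels. The genes examined here were 10: Col4a1 and Col4a2, the ubiquitous type IV collagen chains, the laminin chains Lama2, Lama4, Lama5, Lamb1 and Lamc1, the nidogens Nid1 and Nid2, and Hspg2, which encodes perlecan. Each was read from the probe set that names only that gene, out of 22179 genes read in this way on the Mouse Gene 2.1 ST array (23448 single-gene probe sets among 40543). Only Nid1 had more than 1 such probe set, and the one of highest mean signal was used (the pair correlated with r = 0.98 over 15 tumors).

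The tumors were xenografts of LA-N-1, a human neuroblastoma line with MYCN amplification and endogenous calcium-sensing receptor. They grew subcutaneously, from cells inoculated in Matrigel, in female athymic Nude-Foxn1 nu/nu mice aged 4 to 6 weeks at inoculation. Matrigel is itself a mouse basement membrane extract, and what was measured here was RNA. Vehicle was given to one group and 10 mg/kg/day of cinacalcet, a calcimimetic that activates the receptor, to the other by gavage until the endpoint volume. The arrays held 16 tumors, vehicle V5 to V12 and cinacalcet C4 to C11, the last ones excised in each group. C6 was left out, following the study's methods. The comparisons therefore held 8 vehicle and 7 cinacalcet tumors. C9, C10 and C11 had been treated longest (prolonged, n = 3), and C4, C5, C7 and C8 form the shorter group (n = 4). Treatment length was not assigned, and slow growth and long treatment cannot be told apart here. All signals are deposited log2 values, and the brightness of one gene's probes was not set against that of another.

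The array is designed to read mouse transcripts, which in these tumors can come from host vessels, fibroblasts and immune cells. Markers of muscle, epidermis and fat were also high in single tumors, as given below. No array of LA-N-1 cells alone was used here, and binding of human transcripts was not tested. The 7 neuroblastoma lineage markers measured of 10 had a mean between 2.56 and 4.19 in the 15 tumors, above that of the silent genes given below. Whether that signal came from human or mouse transcripts was not tested. Mean signal of 14 endothelial markers lay between 3.82 and 5.18 in the 15 tumors, that of 12 fibroblast markers between 3.55 and 6.73, and that of genes silent in tumor and stroma between 1.18 and 1.72. These endothelial and fibroblast means are called endothelial signal and fibroblast signal below. Neither list contains any of the 10 genes. In a bulk tumor, fewer cells of a type and less RNA per cell cannot be told apart. The median signal of each array, between 1.58 and 1.85, moved against both lists. Its correlation with fibroblast signal was r = -0.85 and rho = -0.83, and with endothelial signal r = -0.68 and rho = -0.61 (15 tumors, 3 relations, permutation tests with 100000 resamples, adjusted p between 0.00012 and 0.0179). Without V5 and V11, which had the 2 highest medians, r was -0.77 and -0.53. Endothelial and fibroblast signal correlated with each other at r = 0.58 and rho = 0.67 (adjusted p = 0.0233 and 0.0113), and at r = 0.58 without C7 and V11.

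RefSeq promoters of GRCm38.p6 were available for 7 of the 10 genes and are shown for 4 of them, the collagen pair because its start sites adjoin and Hspg2 and Lama2 because their tumor-to-tumor patterns lay near to and far from that of Col4a1. Each window holds 300 bases around the start site, 5′ to 3′ on the gene's strand. Col4a1 lies on the minus strand at chr8:11312777-11313076 and Col4a2 on the plus strand at chr8:11312555-11312854, with start sites 21 bases apart. The windows overlap by 78 bases, in capitals, which read as the reverse complement of each other.
Col4a1: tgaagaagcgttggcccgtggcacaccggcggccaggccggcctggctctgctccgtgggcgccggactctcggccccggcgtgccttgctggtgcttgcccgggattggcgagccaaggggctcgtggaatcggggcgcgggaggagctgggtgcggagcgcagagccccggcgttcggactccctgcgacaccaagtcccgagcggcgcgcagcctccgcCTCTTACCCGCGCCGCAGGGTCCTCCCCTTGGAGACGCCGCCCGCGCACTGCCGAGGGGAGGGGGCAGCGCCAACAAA
Col4a2: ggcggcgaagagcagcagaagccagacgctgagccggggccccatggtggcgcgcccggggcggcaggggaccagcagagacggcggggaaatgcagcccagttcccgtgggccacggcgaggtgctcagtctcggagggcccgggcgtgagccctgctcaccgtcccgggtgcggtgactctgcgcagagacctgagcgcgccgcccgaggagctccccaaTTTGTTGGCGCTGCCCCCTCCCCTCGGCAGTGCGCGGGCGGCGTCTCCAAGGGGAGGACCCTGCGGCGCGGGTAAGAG
Hspg2 (chr4:137468553-137468852, plus strand) and Lama2 (chr10:27616893-27617192, minus strand) are printed with GC boxes, the letters GGGCGG, in capitals on the strand shown.
Hspg2: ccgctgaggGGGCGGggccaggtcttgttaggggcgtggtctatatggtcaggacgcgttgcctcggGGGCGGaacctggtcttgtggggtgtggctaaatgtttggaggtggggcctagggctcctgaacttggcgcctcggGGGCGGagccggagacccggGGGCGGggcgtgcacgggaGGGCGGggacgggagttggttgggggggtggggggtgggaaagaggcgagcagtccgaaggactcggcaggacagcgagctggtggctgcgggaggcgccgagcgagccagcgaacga
Lama2: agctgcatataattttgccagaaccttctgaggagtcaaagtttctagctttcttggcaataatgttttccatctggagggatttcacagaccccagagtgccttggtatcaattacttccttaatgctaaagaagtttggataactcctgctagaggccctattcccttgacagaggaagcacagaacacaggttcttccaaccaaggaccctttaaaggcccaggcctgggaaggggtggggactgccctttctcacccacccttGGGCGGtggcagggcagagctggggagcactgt
On either strand, a GC box was found in 7 of 7 windows, against 35.7% of 32851 promoters in the table, with 1 match in Lama2 and 5 in Hspg2. The letters CCAAT were found in 4 of 7, against 37.4%, and TATAAA in 0 of 7, against 13.6%. GC content was between 50.3% (Lama2) and 74.0% (Col4a1), with a median of 52.7% over all promoters. A match describes letters only, and these data do not show any factor bound there.

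Type IV collagen is the structural scaffold of the sheet, and its α1 and α2 chains assemble into a single trimer. Col4a1 signal was between 4.96 and 6.54 (median 5.64) in the 8 vehicle tumors. With shorter treatment it was 6.15 in C4, 4.96 in C5, 6.58 in C7 and 5.87 in C8, and with prolonged treatment 4.99 in C9, 6.33 in C10 and 6.43 in C11. Both treated groups therefore held tumors at the bottom and at the top of the vehicle range. Col4a2 ran beside it, from 4.69 to 6.36 (median 5.54) with vehicle. Its values were 5.95, 4.83, 6.64 and 5.99 in C4, C5, C7 and C8 and 5.26, 5.76 and 6.43 in C9, C10 and C11. V5 and C5 were low and V8 and C7 high for both chains. The Col4a1 minus Col4a2 difference varied with an SD of 0.22, against SDs of 0.58 and 0.60 for the genes themselves (n = 15).

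Among the laminins, Lama4 encodes the α4 chain of endothelial, muscle and fat laminins and Lamc1 the γ1 chain shared by most laminins. Lama4 was between 4.62 and 6.26 (median 5.57) with vehicle, 6.46, 4.81, 6.24 and 5.61 in C4, C5, C7 and C8, and 5.56, 6.21 and 6.04 in C9, C10 and C11. Lamc1 was between 5.22 and 6.36 (median 5.98) with vehicle, 6.47, 5.32, 6.47 and 6.26 in the shorter group and 5.90, 6.55 and 6.12 in the prolonged group, in the same order of tumors. V11 was the lowest tumor for each, and the groups overlapped. Lamb1, the β1 chain, ranged from 5.19 to 6.31 with vehicle and from 4.98 to 6.10 with cinacalcet. Lama5, the α5 chain of endothelial and epithelial laminins, ranged from 2.21 to 3.01 with vehicle and from 2.25 to 3.34 with cinacalcet, and with Lamb1 it was removed by the filter on variability.

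Lama2, the α2 chain known from muscle and peripheral nerve laminin, gave a pattern set by a single tumor. It was between 2.82 and 3.78 (median 3.37) with vehicle. C7 gave 4.96 while C4, C5 and C8 gave 3.74, 3.06 and 2.89, and C9, C10 and C11 gave 2.98, 3.74 and 3.36. Without C7, the cinacalcet values lay within the vehicle range. C7 also had the highest endothelial signal (5.18), a mean of 3.48 over 8 skeletal muscle markers (1.74 to 3.43 in the vehicle tumors) and of 3.56 over the 7 epidermis markers measured of 8 (1.35 to 1.88 with vehicle). The muscle mean was nearly as high in V7, at 3.43, where Lama2 was 3.10. The part of skin and muscle at the tumor edge in the C7 value was not tested.

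Nidogens and perlecan link the collagen and laminin networks. Nid1 was between 6.10 and 8.22 (median 7.19) with vehicle, 7.50, 6.32, 8.13 and 7.67 in C4, C5, C7 and C8, and 7.13, 8.05 and 7.67 in C9, C10 and C11. No treated tumor lay outside the vehicle range. Nid2 was between 3.85 and 5.00 (median 4.47) with vehicle, 5.22, 4.20, 5.24 and 5.08 in the shorter group and 3.70, 4.65 and 5.08 in the prolonged group. Hence 3 of 4 shorter tumors and C11 of the prolonged group lay above the highest vehicle tumor, and C9 lay below the lowest. Hspg2 was between 4.94 and 6.18 (median 5.66) with vehicle, 5.82, 4.74, 6.51 and 5.78 in the shorter group and 5.18, 6.06 and 6.06 in the prolonged group. C5 was its lowest tumor and C7 its highest, as for Col4a1.

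**Figure D1:**
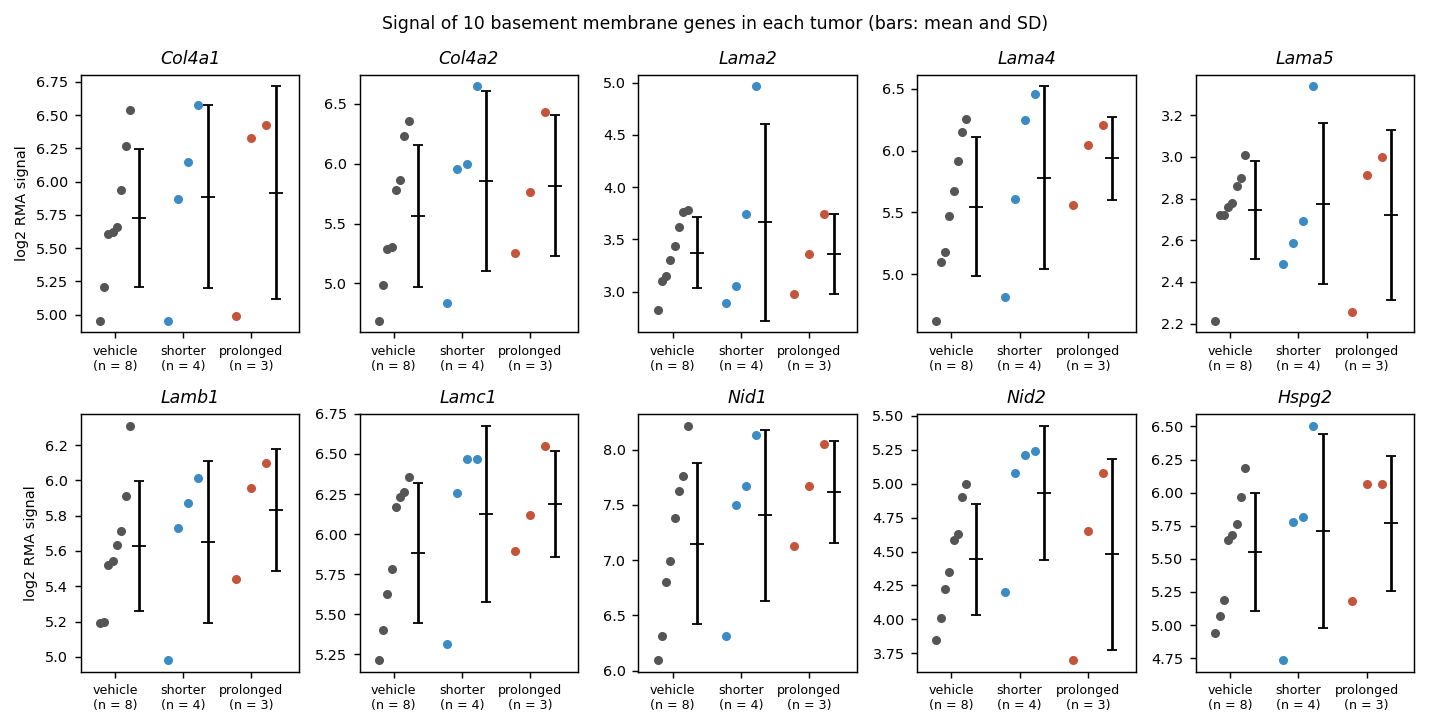
Log2 signal (y axis) of each gene in 8 vehicle, 4 shorter and 3 prolonged tumors (x axis), a point per tumor, with the mean and SD of each group as a black bar. The groups overlap in every panel, and 1 shorter tumor (C7, 4.96) stands above all others for Lama2.

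Differences between tumors of the same group exceeded those between groups. Nid1 spanned 2.12 log2 units among vehicle tumors, a 4.35-fold range, and Lama2 spanned 0.96. C5, C9, V7 and V11 had 0 of 10 genes above the gene's 15-tumor median, while C7 and V6 had 10 of 10. C7 was the highest tumor for 6 genes, and V5 and C5 were each the lowest for 3. Of 45 pairs of these genes, r over 15 tumors was between 0.46 (Lama4 and Lama5) and 0.95 (Lama4 and Lamc1), with a median of 0.77. It was 0.93 for Col4a1 and Col4a2, 0.96 in the vehicle tumors and 0.92 in the cinacalcet tumors. Lama2, Lama5 and Nid2 were the least like the rest, with median r of 0.67, 0.52 and 0.66. All pairs share the same arrays and array medians, and no test was attached.

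**Figure D2:**
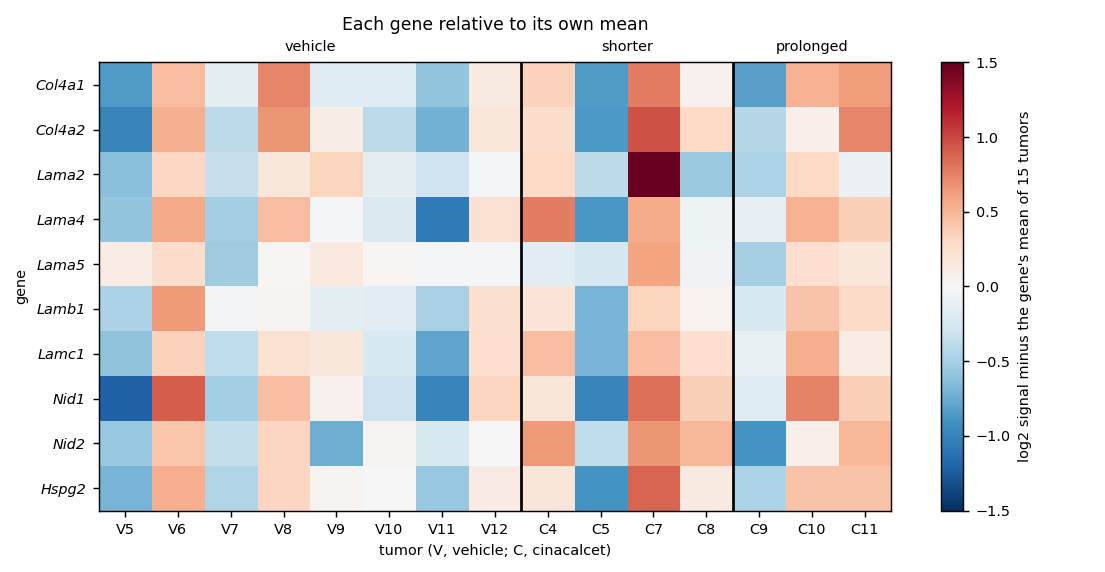
Colour gives the log2 signal minus the gene's own mean over 15 tumors, for 10 genes (rows) in vehicle, shorter and prolonged tumors (columns, separated by black lines). Whole columns are blue in C5 and V11 or red in V6 and C7 in nearly every row, and Lama5 varied least (SD 0.29).

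The comparison of treated with control tumors asked whether host basement membrane transcripts differed after cinacalcet. None of the 10 genes passed an adjusted p of 0.05 (limma), where 0% of 10135 probe sets kept by the filter did. None had an unadjusted p under 0.05 either, against 2.32% of probe sets on the higher side and 1.99% on the lower. All 10 differences, cinacalcet minus vehicle, were above 0, from 0.0076 (Lama5) to 0.35 (Nid1), with a median of 0.23. The median of all probe sets kept was 0.088, and 60.1% of them were above 0. Mean Nid1 signal was 7.50 ± 0.62 (SD) in 7 cinacalcet tumors against 7.15 ± 0.73 (SD) in 8 vehicle tumors, a difference of 0.35 (standard error 0.34, limma adjusted p = 0.917). For Col4a1 the means were 5.90 ± 0.67 and 5.72 ± 0.52, a difference of 0.17 with a 95% interval from -0.47 to 0.82 (limma adjusted p = 0.925). The interval for Col4a2 ran from -0.38 to 0.93 and that for Lamc1 from -0.26 to 0.80. Exact two-sided permutation tests gave p between 0.244 (Lamc1) and 0.963 (Lama5) for the 10 genes, where 0.000155 was the smallest possible. These are among 40 such tests, 10 genes in 4 comparisons. Quantile normalization of the arrays once more lowered the median to 0.12 and gave Lamb1 a difference of -0.064. Without C7 the Lama2 difference turned from 0.16 to -0.076, and the median of the 10 genes was 0.10.

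Prolonged treatment gave a median difference from vehicle of 0.21 over the 10 genes, against 0.18 over all probe sets kept, from -0.023 (Lama5) to 0.47 (Nid1). No gene passed the adjusted threshold (0% of probe sets did) or an unadjusted p of 0.05 (6.21% of probe sets higher, 2.09% lower). Direction depended on the scaling of the arrays: after a second quantile normalization 3 of 10 differences were above 0, with a median of -0.054, and after centring each array on its median 10 of 10 were, with a median of 0.30. Without C9 the median was 0.48 and without C11 it was 0.029. Shorter treatment gave a median of 0.24, against 0.00 over all probe sets kept, again with none past the adjusted (0%) or the unadjusted threshold (1.18% higher, 1.42% lower). That median rested on single tumors, at -0.028 without C7 and 0.51 without C5. The Nid2 difference there was 0.49 (standard error 0.32, limma unadjusted p = 0.146). The exact two-sided permutation p of that difference was 0.101, with 0.00202 the smallest possible.

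Setting the treated groups against each other, Nid2 was 4.48 ± 0.71 (SD, n = 3) after prolonged and 4.93 ± 0.50 (SD, n = 4) after shorter treatment. The difference of -0.45 had a standard error of 0.40 and a limma adjusted p of 0.825, and it was -0.76 without C11 and -0.066 without C9. Its exact two-sided permutation p was 0.343, where 3 against 4 tumors cannot go below 0.0286. Over the 10 genes the median difference was 0.044, against 0.17 over all probe sets kept, with 0% of probe sets called. It had no settled direction, at -0.24 without C5, 0.29 without C9 and -0.19 after a second quantile normalization, where 1 of 10 differences was above 0. The comparisons with vehicle share their control tumors.

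**Figure D3:**
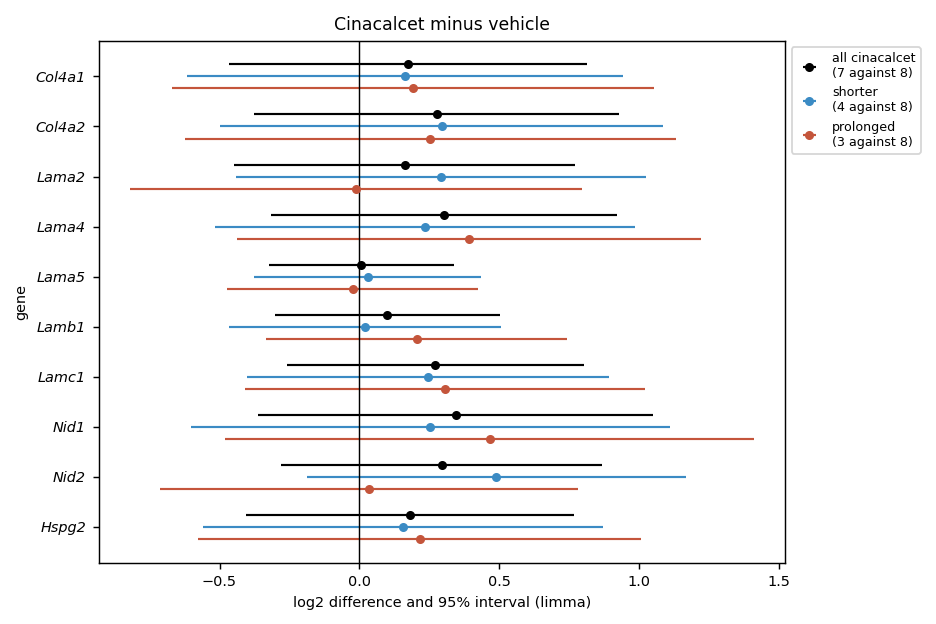
Log2 difference from vehicle with its 95% interval (x axis) for each gene (y axis), for all cinacalcet tumors and for the shorter and prolonged groups. Every interval includes 0, and the point furthest from it is Nid2 after shorter treatment, at 0.49.

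Other genes of the basement membrane were read in the same way, and those removed by the filter came from the fit of all probe sets. None of 4 other type IV collagen chains, 5 measured of 6 other laminin chains, 13 other components, 10 receptors and 10 measured of 12 genes of collagen synthesis and cross-linking passed the adjusted threshold with cinacalcet. Their median differences were -0.10, 0.10, 0.13, 0.15 and 0.15. The first 2 of these medians rest largely on genes near background. Mean signal was 1.04 to 1.81 for the 4 collagen chains and 1.45 to 1.77 for Lama1, Lama3 and Lamb3. Single silent genes reached 1.89. Lamc3 (2.24) and Lamb2 (3.90) lay above that. The smallest unadjusted p was that of Col4a6, a chain of the α5α5α6 collagen of smooth muscle and epithelial sheets. Its difference was -0.28 in the fit with no filter (limma unadjusted p = 0.0354, adjusted p = 0.909). Its mean signal of 1.42 lay within the range of the silent genes. Itga1, the integrin α1 subunit that binds type IV collagen, differed by 0.44 with all cinacalcet tumors and by 0.84 with prolonged treatment (standard error 0.38, limma adjusted p = 0.58).

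The second question was how far the 10 genes followed the vessels and the fibroblasts of each tumor. Mean endothelial signal was 4.41 ± 0.43 (SD) in 7 cinacalcet tumors against 4.30 ± 0.35 (SD) in 8 vehicle tumors, and mean fibroblast signal was 5.77 ± 0.57 and 5.46 ± 0.99. All 10 genes had a positive slope on endothelial signal with an unadjusted p under 0.05, where 18.6% of probe sets kept had. The 10 genes moved together (median pairwise r = 0.77), so they do not count as independent here or in the fits below. The share was not counted for probe sets of like signal. Slopes ran from 0.45 (Lama5) to 1.43 (Col4a2) log2 units of gene signal per log2 unit of endothelial signal, with a median of 1.14 against 0.22 over all probe sets kept. For Col4a1 the slope was 1.28 (standard error 0.29) and for Nid1 1.39 (standard error 0.34). None passed the adjusted threshold, and 0% of 10124 probe sets did. Col4a2 had the lowest adjusted value of the 10 (limma adjusted p = 0.0589). With no filter, Col4a1, Col4a2, Lama2 and Hspg2 passed, among 0.146% of 40529 probe sets, and 7.3% of those had an unadjusted p under 0.05 on the higher side, the fit from which Lama5 and Lamb1 were read. The median slope was 1.04 in the vehicle tumors alone and 1.04 in the cinacalcet tumors alone, but single genes varied: Lama5 had slopes of 0.10 and 0.73 and Nid2 of 0.30 and 1.01, differences that were not tested. With the median of each array in the fit, a choice made after seeing the data, the median slope was 0.91 and 6 of 10 genes had an unadjusted p under 0.05. The other 4 were Lama4 (0.65), Lamb1 (0.46), Lamc1 (0.44) and Nid1 (0.82), and none of the 10 passed adjusted. With C9 left out 7 genes passed, and with each array centred on its median 8 did. The share of all probe sets passing was not counted in these settings or with the array median in the fit. The counts are therefore not read as a result about the 10 genes.

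On fibroblast signal, 5 of 10 genes rose with an adjusted p under 0.05, where 26.9% of probe sets kept were called in either direction. They were Nid1, Lamc1, Lama4, Col4a2 and Hspg2. Nid1 had a slope of 0.65 (standard error 0.15, limma adjusted p = 0.00737) and Lamc1 one of 0.43 (standard error 0.12, limma adjusted p = 0.017). Lama5 and Nid2 did not pass even unadjusted, with slopes of 0.078 and 0.18, while the other 8 did (32% of probe sets kept on the higher side, and 11.3% with no filter, from which Lamb1 was read). With the median of each array in the fit 0 of 10 passed and the Nid1 slope was 0.33. In the vehicle tumors alone and in the cinacalcet tumors alone 0 of 10 passed, with Nid1 slopes of 0.62 and 0.70. Without V5, the tumor of lowest fibroblast signal (3.55), 3 passed. The share of all probe sets passing was not counted with the array median in the fit, within a group alone or without V5.

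**Figure D4:**
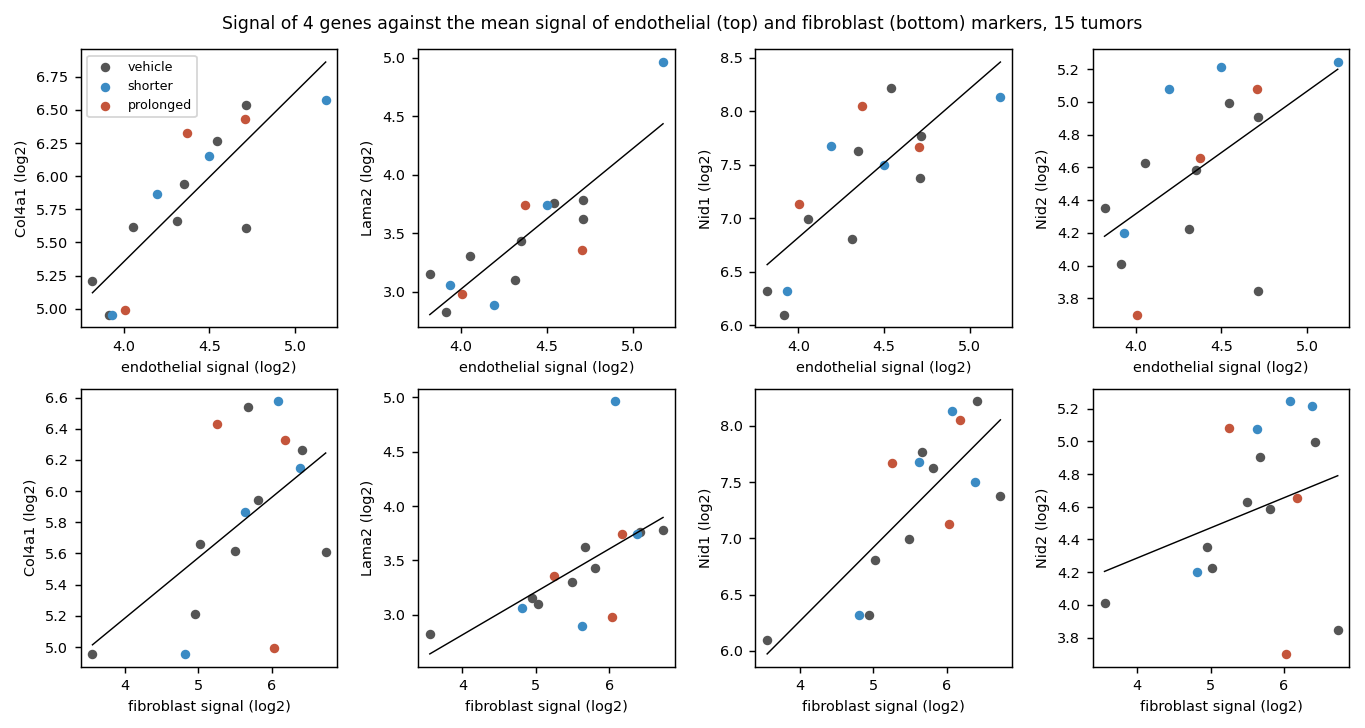
Log2 signal of 4 of the genes (y axes) against mean endothelial signal (top) and mean fibroblast signal (bottom, x axes), a point per tumor coloured by group, with the fitted slope as a line. Col4a1 spreads closely about the endothelial line (70.3% of its variance) and widely about the fibroblast line (28.9%), and Nid2 spreads widely about each.

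As a description, endothelial signal alone accounted for between 31.6% (Nid2) and 80.0% (Col4a2) of the variance of a gene over 15 tumors, and fibroblast signal for between 4.75% (Lama5) and 61.4% (Lamc1). The 3 treatment groups accounted for between 0.431% (Lama5) and 19.0% (Nid2). Lamc1 was the single gene of which fibroblast signal took the larger share, at 61.4% against 56.3%. For Nid1 the shares were nearly equal, 60.2% and 59.9%. Array median by itself accounted for 32.0% for Col4a1, 62.3% for Lama4, 65.0% for Lamc1 and 61.2% for Nid1. For Lama4, Lamc1 and Nid1 this was more than either marker signal did. For each other gene it was less than endothelial signal did.

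With both marker signals in one fit, every endothelial slope remained positive, from 0.49 (Lamb1) to 1.26 (Col4a2). Of these slopes 7 of 10 had an unadjusted p under 0.05, against 3.7% of probe sets kept on the higher side. Lama5, among the 7, was read from the fit with no filter, for which that share is not given here. None passed the adjusted threshold, and 0% of probe sets did. The Lama2 endothelial slope of 1.07 was 0.53 without C7. The fibroblast slopes lay between -0.065 (Lama5) and 0.41 (Nid1), and only that of Nid1 had an unadjusted p under 0.05, against 21.1% of probe sets. None of the 10 passed adjusted, where 3.65% of probe sets did. Of the 10 measured genes of collagen synthesis and cross-linking 3 passed, among them the lysyl oxidase Lox, which cross-links collagen, with a fibroblast slope of 0.94 (limma adjusted p = 0.0109). Of the 13 other basement membrane components 1 passed, Fbln2, an elastic fiber and basement membrane protein, with a slope of 1.03 (limma adjusted p = 0.00559). Whether these slopes differ from those of the 10 genes was not tested.

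**Figure D5:**
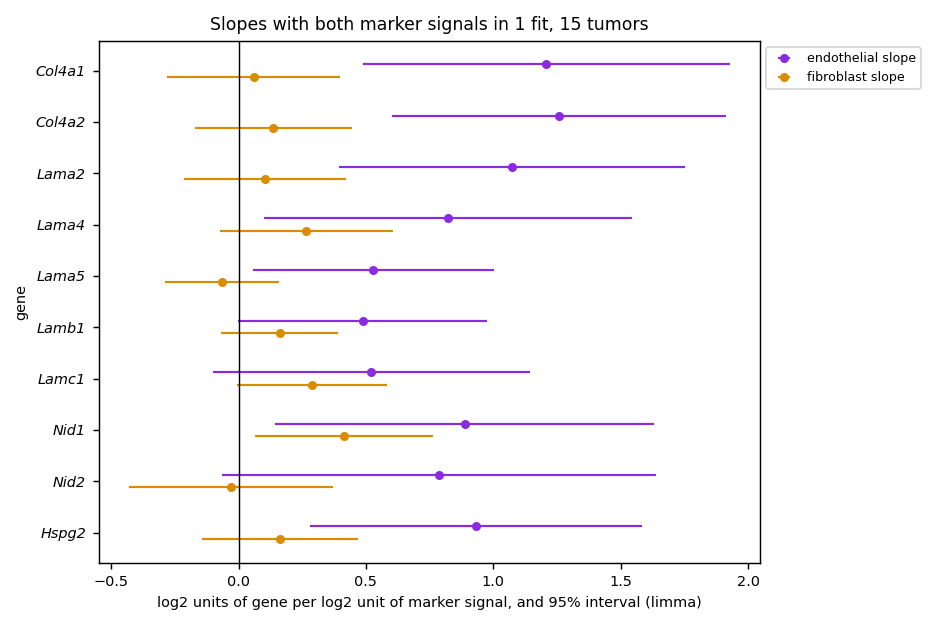
Slopes of each gene (y axis) on endothelial and on fibroblast signal fitted together, in log2 units of gene per log2 unit of marker signal with 95% intervals (x axis), over 15 tumors. Endothelial intervals exclude 0 for 7 genes, and of the fibroblast intervals only that of Nid1 does.

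When both signals were covariates, the cinacalcet difference had a median of 0.065 over the 10 genes, from -0.032 (Lama5) to 0.23 (Nid2), and 0 of 10 passed (0% of probe sets). That median was -0.028 without V9 and 0.15 without C5. Mural cells also make basement membrane. On the mean signal of 10 mural cell markers, a comparison added after seeing the data, all 10 slopes had an unadjusted p under 0.05 (12.2% of probe sets kept, 5.13% with no filter) and Col4a1, Col4a2, Lamb1, Nid1 and Hspg2 passed adjusted, where 0.869% of probe sets kept and 0.266% with no filter did. On 10 macrophage markers 4 of 10 passed, against 45.5% of probe sets.

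By pattern over the 15 tumors, the single-gene probe sets most like Col4a1 outside the 10 genes and the marker lists were those of Ptprm (r = 0.94), Pxdn (0.92), Sema7a (0.91), Mcam (0.90) and Myo1d (0.89). Ptprm is a receptor tyrosine phosphatase of endothelial junctions, Pxdn encodes peroxidasin, which cross-links type IV collagen, and Mcam encodes the adhesion molecule CD146 of endothelial and mural cells. The endothelial markers kept by the filter ranged from r = 0.28 (Cldn5) to 0.96 (Cdh5). Among all 10135 probe sets Hspg2 ranked 4 (0.94) and Col4a2 5 (0.93), whereas Nid2 ranked 50 and Lama2 255.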

How the data were processed

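RNA of 16 xenografts was hybridized to Mouse Gene 2.1 ST arrays. The deposited values are log2 signals of 40543 probe sets, which the authors obtained by Robust Multi-array Average (RMA) pre-processing. Tools named in the submitters' processing notes are limma 3.24 and R 3.2. A genome build is not given in the sources used here. Platform annotation named 1 gene for 23448 probe sets and several for 1619, and 15476 are unnamed here. Members and lists were chosen with earlier results of these data known. The named genes are the 10 members, up to 3 genes per related list by smallest p for cinacalcet against vehicle (Lox and Fbln2 were added after their slopes were seen), and the 5 genes most like Col4a1.

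Following the methods, C6 was left out, and the 50% of probe sets of lowest mean signal and 50% of the rest of lowest SD were removed, leaving 10135, tested with limma 3.58.1 in R 4.3.3 with Benjamini-Hochberg adjustment over all of them. Lama5, Lamb1 and those genes of the related lists that the filter removed were read from the fit of all 40543. Slopes used the mean signal of each marker list, whose own genes were left out of the fit. The scripts were tested on simulated data. Tumors of each group are separate samples, and their number limits the precision. Tumor numbers shared between groups were not used as pairs in the main comparisons, and whether they pair tumors was not settled. Alternatives covered the filter, scaling, variance model, array weights, probe sets, tumor number, C6, marker lists and each tumor left out in turn.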

Additional observations from a re-analysis of the deposited data

Results flagged for a closer look

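In 6 of 40 groups of tumors examined, covering the genes and marker lists, a single tumor stood far from the rest. The rule took the gap to the next tumor as a share of the group's range. Its nominal rate of about 5% holds for independent, normally distributed values. The groups share tumors and arrays, and an excess over that rate was not tested. Lama2 was 4.96 in C7, with the next cinacalcet tumor at 3.74. Lama5 was 2.21 in V7, with the next vehicle tumor at 2.72. The epidermis markers had a mean of 3.56 in C7, the skeletal muscle markers one of 3.43 in V7, the adipocyte markers one of 4.05 in V9 and the neuroblastoma lineage markers one of 4.19 in C10. The next tumor of the same group was at 2.12, 2.26, 2.43 and 2.99 in turn.

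C6, which entered no comparison, lay above the highest vehicle tumor for 6 of the 10 genes: Col4a2 (6.62), Lama2 (3.97), Lama5 (3.03), Lamc1 (6.81), Nid1 (8.48) and Hspg2 (6.64). The study had excluded C6 as an outlier, by its distance from the other arrays and its distribution of intensities. The share of all probe sets for which C6 lay above every vehicle tumor was not computed. The count is therefore not read as a result about these genes.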

How the results depend on the processing

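No group comparison called any of the 10 genes under any alternative run. Under a second quantile normalization the cinacalcet difference of Lamb1 was -0.064, and the prolonged differences were -0.10 for Col4a1, -0.040 for Col4a2, -0.094 for Lamb1, -0.17 for Nid2 and -0.072 for Hspg2. Centring each array on its median gave prolonged differences of 0.081 for Lama2 and 0.070 for Lama5. This scaling moved the median of all probe sets kept, for prolonged treatment, from 0.18 to 0.27, and the second quantile normalization moved it to 0.081. The share of probe sets above 0 was 61.7% as deposited, 67.2% centred and 56.4% quantile-normalized again.

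Leaving out each tumor in turn, the cinacalcet difference ran from -0.076 to 0.27 for Lama2 and from -0.090 to 0.091 for Lama5. The prolonged difference ran from -0.065 to 0.65 for Col4a1, from -0.051 to 0.53 for Col4a2, from -0.20 to 0.18 for Lama2, from -0.16 to 0.21 for Lama5 and from -0.27 to 0.42 for Nid2. Fibroblast slopes with endothelial signal in the fit ran from -0.048 to 0.16 for Col4a1, from -0.12 to 0.048 for Lama5 and from -0.18 to 0.11 for Nid2. The count of genes called ran from 0 to 7 on endothelial signal and from 3 to 7 on fibroblast signal. It was 7 of 10 without C9 in each. On fibroblast signal it was 3 when V5, V6, V7, V11, C4, C5 or C7 was the tumor left out. The share of all probe sets called was not counted with a tumor left out.

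On endothelial signal, 4 genes were called with no filter, 8 with each array centred, 2 in the vehicle tumors alone and 1 with C6 included. On fibroblast signal, 8 were called with each array centred, 3 without V5 and V9, 3 with group in the fit, 3 with markers other than collagens, and 0 within either group alone or with the array median in the fit. The cause was not tested. On endothelial signal with no filter, 0.146% of all probe sets were called. In the other slope settings listed here the share of all probe sets called was not counted. Those counts are therefore not read as a result about these genes. Tumor numbers shared by 6 pairs gave correlations of deviations from -0.24 to 0.37, over 0.1 in 2 pairs, and 2 tumors correlated best with their own number. With the number as a replicate block, the median cinacalcet difference was 0.32 and 0 genes were called.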
